A study of Mus musculus with 6 samples.

Results

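The genes of the mitochondrial ribosomal proteins were examined in left ventricles of mice that lack NCoR1 in cardiomyocytes. They were chosen by symbol, as every row of the deposited gene table named Mrpl or Mrps with a number and at most 1 further letter. This gave 76 of 17121 genes, of which 47 (Mrpl) are named for the large subunit and 29 (Mrps) for the small subunit. The 4 pseudogene rows Mrpl48-ps, Mrpl23-ps1, Mrps36-ps1 and Mrps36-ps2 were not taken. RNA-sequencing had been carried out on 1 library per mouse from 3 littermate control (LC) mice, numbered 15, 25 and 26, and from 3 cardiomyocyte-specific NCoR1 knockout (CMNKO) mice, numbered 16, 17 and 18. All mice were C57BL/6 and 2 months old. CMNKO mice carried floxed NCoR1 alleles and the αMHC-Cre transgene, whose promoter acts in cardiomyocytes, while other cells of the ventricle kept NCoR1. The alleles of the littermate controls are not stated beyond that name.

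Mitochondria hold their own ribosomes, which make the small set of respiratory chain and ATP synthase subunits that mitochondrial DNA encodes. The ribosomal RNAs of these ribosomes come from mitochondrial DNA, but every ribosomal protein is encoded in the nucleus, made in the cytosol and imported. Some of the proteins descend from bacterial ribosomal proteins, and others were added in the mitochondrial lineage. The heart, with its constant need for oxidative phosphorylation, is rich in mitochondria. NCoR1 is a corepressor that nuclear receptors and other transcription factors recruit to silence genes.

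Ncor1 itself was read at 111, 102 and 90.7 CPM in LC 15, LC 25 and LC 26 and at 50.5, 51.3 and 42.4 CPM in CMNKO 16, CMNKO 17 and CMNKO 18, where CPM are counts scaled to the size of each library with TMM factors. The log2 fold change was -1.07 (SE 0.13, adjusted p = 0.00845), by the quasi-likelihood F-test of edgeR, with p-values adjusted after Benjamini and Hochberg over all tested genes, as for all fold changes below. Total counts ran from 6319488 to 8752609 per mouse. The first principal component (48.7% of the variance) parted LC 25 and LC 26, whose library numbers come later, from the other 4 libraries. In those 2 mice mitochondrially encoded genes took 36.4% and 33.1% of the counts, against 26.5% to 28.1% in the others. The later library numbers hold LC mice only, so that part of any genotype difference cannot be told apart from a difference between the library blocks.

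No mitochondrial ribosomal protein gene passed the test, but most of these genes had slightly lower estimated levels in CMNKO than in LC mice. All 76 genes were read deeply enough to be tested, and 0 of them had an adjusted p below 0.05, where 79 of 13040 genes (0.606%) passed. With so small a share of calls among all genes, the count of 0 does not set these genes apart. At an unadjusted p below 0.05 there were 16 lower members (21.1%, against 8.80% of all genes) and 1 higher member (1.32%, against 10.1%). DESeq2 and limma-voom also called 0 members, where they called 361 and 94 of the 13040 genes. At an unadjusted p below 0.05 in either direction DESeq2 had 12 members (15.8%, against 14.8% of all genes) and limma-voom 18 (23.7%, against 20.1%), shares near those of all genes. The estimate was below 0 for 62 members (81.6%, against 49.8% of all genes) and above 0 for 14, with a median log2 fold change of -0.16 over the members and 0.00 over all genes. Every CMNKO mouse lay below every LC mouse for 25 members (32.9%, against 12.3% of all genes), and above for Mrpl3 and Mrpl40 (2.63%, against 11.2%). For the remaining 49 members the groups overlapped. Fewer cells of a type and less RNA per cell cannot be told apart in whole ventricles.

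**Figure D1:**
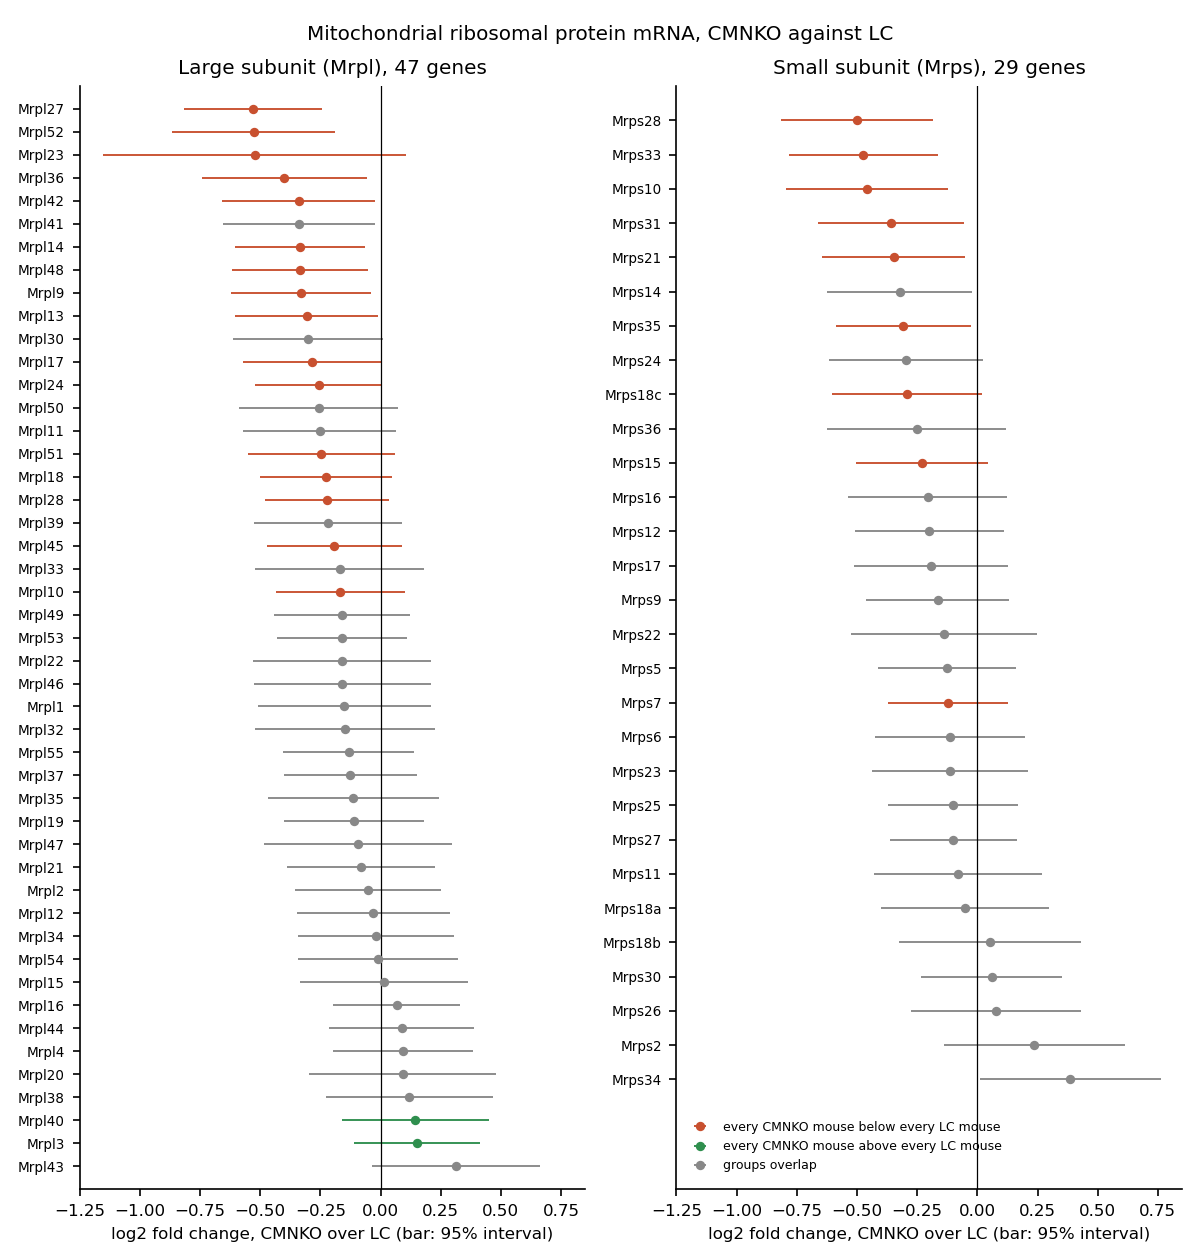
Log2 fold change of CMNKO over LC (x axis) with its 95% interval for each of the 47 large subunit and 29 small subunit genes, ordered by estimate. The estimates run from -0.53 (Mrpl27) to 0.39 (Mrps34), and colours mark the 25 genes with every CMNKO mouse below every LC mouse and the 2 with every one above.

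Both subunits had like values. The median log2 fold change was -0.16 over the 47 large subunit genes, of which 38 had a lower estimate, and -0.16 over the 29 small subunit genes, of which 24 had one. The groups did not overlap, with CMNKO lower, for 16 large subunit genes (34.0%) and 9 small subunit genes (31.0%), against 12.3% of all genes. Summed CPM of the large subunit genes was 2830, 2825 and 3322 in the LC mice and 2753, 2623 and 2597 in the CMNKO mice. Summed CPM of the small subunit genes was 1319, 1321 and 1508 in the LC mice and 1253, 1196 and 1222 in the CMNKO mice. The CMNKO sums lay below all LC sums for both subunits, and LC 26 stood highest in each. The large to small ratio was 2.16 ± 0.04 (SD, n = 3) in LC mice and 2.17 ± 0.04 (SD, n = 3) in CMNKO mice, a difference smaller than the spread between mice. The sum over all members was 11.3% lower in CMNKO mice. Taken as a share of all counts instead, members held 0.421%, 0.388% and 0.446% in LC mice and 0.412%, 0.405% and 0.395% in CMNKO mice, so that the groups overlapped and the difference shrank to 3.34%. Members with a bacterial counterpart (44 genes, median -0.17) and without one (27 genes, median -0.16) also lay close together.

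LC 26 stood above the other mice for most members. After each gene was set against its own mean over the 6 mice, the median member deviated by 0.02 on the log2 scale in LC 15, by 0.04 in LC 25 and by 0.24 in LC 26. The CMNKO medians were -0.03, -0.09 and -0.12 in mice 16, 17 and 18. LC 26 was the highest of the 6 mice for 51 of the 76 members, while CMNKO 18 was the lowest for 25 and CMNKO 17 for 21. Without LC 26 the median over the members was -0.10 with 55 lower estimates, and without LC 15 it was -0.25 with 61 lower estimates. With the library block as a term, which leaves LC 15 as the only control set against the CMNKO mice, the median was -0.10 with 54 lower estimates, and 1 member (1.32%, against 7.57% of all genes) had an unadjusted p below 0.05. That fit called 22 of the 13040 genes.

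**Figure D2:**
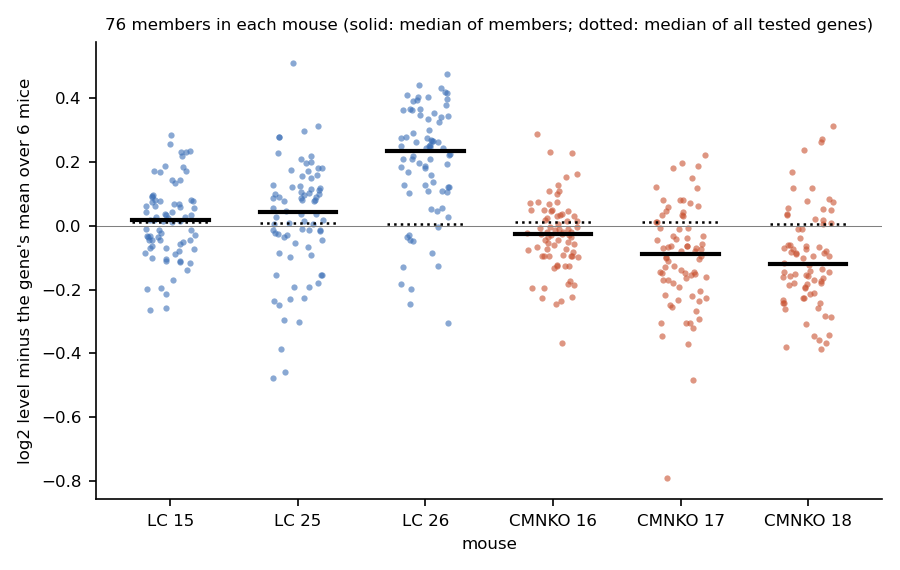
Log2 level of each of the 76 members minus its own mean over the 6 mice (y axis), by mouse, with the median of members (solid line) and of all tested genes (dotted line). Members stand high in LC 26 (median 0.24) and low in CMNKO 17 and CMNKO 18 (medians -0.09 and -0.12), while the median of all genes stays near 0 in every mouse.

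The member with the smallest p was Mrpl27, a large subunit protein whose bacterial counterpart reaches towards the site of peptide bond formation. It was read at 37.4, 39.6 and 38.0 CPM in LC mice and at 24.7, 28.9 and 26.1 CPM in CMNKO mice. The LC mice lay within a narrow band well above all CMNKO mice. Its log2 fold change was -0.53 (SE 0.13, 95% interval -0.82 to -0.24, adjusted p = 0.0933). With the library block as a term the estimate was -0.50, at an unadjusted p of 0.0113 and an adjusted p of 0.462, and this was the 1 member with an unadjusted p below 0.05 in that fit.

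Other members with low estimates varied more. Mrps28, a small subunit protein of the mRNA path, was read at 49.6, 52.9 and 59.4 CPM in LC mice and at 39.5, 32.3 and 42.7 CPM in CMNKO mice, with an estimated log2 fold change of -0.50 (SE 0.14, adjusted p = 0.123). Mrpl52, a large subunit protein with no bacterial counterpart, was read at 34.5, 41.0 and 47.1 CPM in LC mice and at 31.7, 27.4 and 25.99 CPM in CMNKO mice, with an estimated log2 fold change of -0.53 (SE 0.15, adjusted p = 0.128). For both genes the groups did not overlap, but LC 15 was the lowest control. Mrps33, which has no bacterial counterpart, had LC values of 35.3, 38.3 and 43.8 CPM and CMNKO values of 30.3, 28.1 and 26.1 CPM (log2 fold change -0.47, SE 0.14, adjusted p = 0.131). Mrps10, which has one, had LC values of 19.0, 22.7 and 24.1 CPM and CMNKO values of 16.01, 15.5 and 16.4 CPM (log2 fold change -0.46, SE 0.15, adjusted p = 0.158). In these 2 genes too LC 15 lay nearest to the CMNKO mice, and with the library block as a term the estimates were -0.32 and -0.25. The block term gave -0.38 for Mrps28 and -0.28 for Mrpl52.

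Mrpl14 was among the members with the smallest p and had controls that barely varied. This protein faces the small subunit and, in human cells, binds a factor that keeps immature large subunits from joining. Its levels were 60.5, 62.1 and 62.1 CPM in LC mice and 53.0, 44.3 and 49.1 CPM in CMNKO mice, with an estimated log2 fold change of -0.33 (SE 0.12, adjusted p = 0.19). Mrps31 and Mrpl48, the last of the 8 members with the smallest p, had estimates of -0.36 (SE 0.14, adjusted p = 0.209) and -0.33 (SE 0.13, adjusted p = 0.209), again with all CMNKO mice below all LC mice. Mrpl36, with 28.7, 33.1 and 39.9 CPM in LC mice and 26.01, 23.5 and 27.6 CPM in CMNKO mice, had the fourth lowest estimate of the large subunit at -0.40 (SE 0.16, adjusted p = 0.212). The 5 genes with the smallest p, Mrpl27, Mrps28, Mrpl52, Mrps33 and Mrps10, were among the 10 members that passed the test as lower once LC 15 was left out (13.2%, against 7.67% of all genes). The other 5 were Mrpl9, Mrpl36, Mrpl41, Mrps14 and Mrps21. In that comparison the controls are LC 25 and LC 26 alone, and 2624 of 13495 genes passed, so that genotype and library block cannot be told apart.

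**Figure D3:**
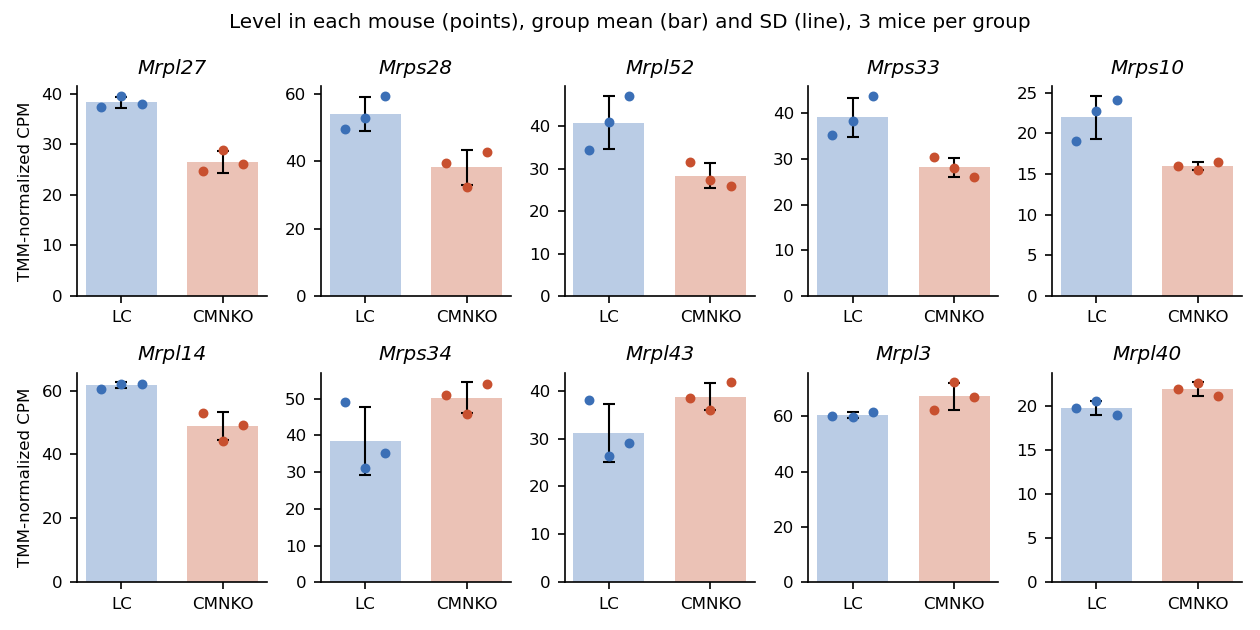
TMM-normalized CPM (y axis) of 10 members by group, with points for mice, bars for group means and lines for the SD (n = 3). In the 6 genes with low estimates, such as Mrpl27 with 24.7 to 28.9 CPM in CMNKO and 37.4 to 39.6 CPM in LC mice, the groups do not overlap, while for Mrps34 and Mrpl43 LC 15 lies among the CMNKO mice.

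Upward estimates were few. Mrps34, a small subunit protein whose loss causes mitochondrial disease in humans, was read at 49.0, 31.2 and 35.1 CPM in LC mice and at 50.9, 45.7 and 54.0 CPM in CMNKO mice. Its log2 fold change was 0.39 (SE 0.17, unadjusted p = 0.0453, adjusted p = 0.254), and LC 15 lay between the CMNKO mice. Mrpl43 showed the same arrangement, with 38.1, 26.4 and 29.1 CPM in LC mice and 38.3, 36.1 and 41.7 CPM in CMNKO mice, with an estimated log2 fold change of 0.31 (SE 0.16, adjusted p = 0.307). These 2 genes passed as higher without LC 15 (2.63%, against 11.8% of all genes), and with the library block as a term their estimates were 0.04 and 0.02. Mrps2 followed with an estimate of 0.24 (SE 0.17, adjusted p = 0.457) and overlapping groups.

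Mrpl3 and Mrpl40 were the 2 members for which each CMNKO mouse exceeded each LC mouse, though by little. Mrpl3, a large subunit core protein of bacterial descent, was read at 60.1, 59.9 and 61.6 CPM in LC mice and at 62.5, 72.2 and 67.0 CPM in CMNKO mice, with an estimated log2 fold change of 0.15 (SE 0.12, adjusted p = 0.495). Mrpl40 was read at 19.8, 20.6 and 19.0 CPM in LC mice and at 21.9, 22.6 and 21.1 CPM in CMNKO mice, with an estimated log2 fold change of 0.14 (SE 0.14, adjusted p = 0.582). Their estimates were 0.16 and 0.14 with the library block as a term.

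The promoters of members on both sides of this range were read from RefSeq's windows on GRCm38.p6, which span 250 bases before to 50 bases after a start site. Those of Mrpl27 and Mrpl52, with the lowest estimates, and of Mrpl3 and Mrpl40, with all CMNKO mice above all LC mice, are shown 5′ to 3′ on the strand of the gene. Capitals mark the letters searched on both strands for ETS factors such as GABP (CCGGAAG), NRF1 (GCGCATGC) and YY1 (ATGGCGGC), known as regulators of nuclear genes for mitochondria. None of these motifs contains another.
Mrpl27, chr11:94653541-94653840, + strand: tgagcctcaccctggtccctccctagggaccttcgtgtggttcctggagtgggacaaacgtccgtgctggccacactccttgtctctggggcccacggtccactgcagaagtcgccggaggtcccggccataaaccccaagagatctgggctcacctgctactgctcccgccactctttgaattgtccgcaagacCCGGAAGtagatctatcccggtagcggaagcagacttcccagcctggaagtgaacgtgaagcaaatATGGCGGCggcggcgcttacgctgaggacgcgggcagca
Mrpl52, chr14:54426659-54426958, + strand: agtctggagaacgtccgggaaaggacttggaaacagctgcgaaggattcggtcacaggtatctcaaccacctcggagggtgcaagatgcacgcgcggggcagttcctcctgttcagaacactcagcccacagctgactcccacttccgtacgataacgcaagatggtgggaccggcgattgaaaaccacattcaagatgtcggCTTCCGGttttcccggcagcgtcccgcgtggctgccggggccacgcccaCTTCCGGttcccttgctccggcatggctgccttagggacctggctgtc
Mrpl3, chr9:105053018-105053317, + strand: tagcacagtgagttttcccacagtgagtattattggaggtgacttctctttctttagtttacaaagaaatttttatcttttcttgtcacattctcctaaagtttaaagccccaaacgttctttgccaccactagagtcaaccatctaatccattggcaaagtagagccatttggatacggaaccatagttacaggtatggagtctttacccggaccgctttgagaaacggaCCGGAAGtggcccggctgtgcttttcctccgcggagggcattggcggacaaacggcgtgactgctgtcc
Mrpl40, chr16:18876588-18876887, - strand: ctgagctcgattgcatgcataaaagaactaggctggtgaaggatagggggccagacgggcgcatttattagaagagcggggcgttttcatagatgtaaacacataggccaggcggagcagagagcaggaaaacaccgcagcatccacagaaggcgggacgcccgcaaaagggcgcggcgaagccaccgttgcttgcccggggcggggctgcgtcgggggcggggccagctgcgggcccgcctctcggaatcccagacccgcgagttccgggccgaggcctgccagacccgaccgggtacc
The Mrpl27 window held the ETS letters with their first base 55 bases before the start site and the YY1 letters 11 bases after it. The Mrpl52 window held the ETS letters on the opposite strand, at 47 bases before and 2 bases after the start site. The Mrpl3 window held them 19 bases before the start site, and the Mrpl40 window held none of the 3 motifs. A match describes letters and is not a measured binding site.

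Windows were found for 67 of the 76 members, 73 windows in all. The ETS letters were in 32.9% of the member windows, against 16.99% of the 12617 windows of tested genes and 8.86% of all 32851 windows of the same length. The YY1 letters were in 16.4%, against 4.71% and 2.24%, and the NRF1 letters in 10.96%, against 5.05% and 2.71%. A TATA box (TATAAA) was in 6.85% of member windows, against 7.35% of the windows of tested genes and 13.6% of all windows, and an E-box (CACGTG) in 9.59%, against 9.88% and 7.15%. At least 1 of the ETS, NRF1 and YY1 motifs was found for 34 members, whose median log2 fold change was -0.16. The 33 members whose windows held none had a median of -0.19. In each set 11 genes had all CMNKO mice below all LC mice (32.4% and 33.3%, against 12.3% of all genes). Members with and without these letters thus had like estimates. The named factors were themselves read in these hearts, with log2 fold changes of 0.00 for Nrf1 (SE 0.19, adjusted p = 0.999), -0.16 for Gabpa (SE 0.12, adjusted p = 0.449), -0.01 for Gabpb1 (SE 0.23, adjusted p = 0.986) and 0.28 for Yy1 (SE 0.17, adjusted p = 0.389).

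By place in the ribosome, no list of members held a call. At the central protuberance, where mammalian mitochondrial ribosomes carry a tRNA in place of the bacterial small rRNA, 4 of 6 estimates were lower (Mrpl18, Mrpl27, Mrpl46, Mrpl48) and 2 were higher (Mrpl38, Mrpl40), with a median of -0.19. Around the exit tunnel, through which the new peptide leaves, all 6 estimates were lower with a median of -0.22. Mrpl17, Mrpl23, Mrpl24 and Mrpl45 had all CMNKO mice below all LC mice (66.7% of the 6, against 32.9% of members and 12.3% of all genes). Mrpl45, which in mammals holds the ribosome at the inner membrane, had an estimate of -0.19 (SE 0.13, adjusted p = 0.418).

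At the stalks, which handle translation factors and leaving tRNAs, Mrpl1, Mrpl10, Mrpl11 and Mrpl12 all had lower estimates (median -0.16). Mrpl12, the flexible stalk protein and 1 of the 5 highest members per length, was read at 181, 153 and 212 CPM in LC mice and at 195, 167 and 171 CPM in CMNKO mice, with overlapping groups and an estimate of -0.03 (SE 0.14). On the decoding side of the small subunit 5 of 6 estimates were lower (Mrps5, Mrps7, Mrps12, Mrps24, Mrps28; median -0.16) and that of Mrps2 was higher. Mrps12, which lies at the decoding centre, had an estimate of -0.20 (SE 0.14, adjusted p = 0.444). Among proteins of the subunit interface and of late assembly 5 of 6 were lower (Mrpl14, Mrpl19, Mrpl33, Mrpl35, Mrpl36; median -0.14) and that of Mrpl16 was higher. Of 12 members whose loss is known to cause disease in humans, 8 had lower and 4 had higher estimates (median -0.11).

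Levels differed far more between members than between genotypes. Per kb of mean transcript length, LC levels were highest for Mrpl42 (265 ± 44.5, SD, n = 3, in CPM per kb), Mrpl18 (246 ± 27.6), Mrps21 (233 ± 34.9), Mrpl30 (201 ± 32.8) and Mrpl12 (174 ± 28.5). The SDs of neighbours in this order overlapped, so that the order among them is not settled. It also depended on the length used, since by the longest transcript Mrps21 was first (190 CPM per kb) and Mrpl42 was sixth (92.8 CPM per kb). The lowest levels were those of Mrpl23 (4.10 ± 0.64), Mrps30 (8.58 ± 0.08), Mrps22 (8.69 ± 1.58), Mrpl1 (9.99 ± 1.76) and Mrps2 (10.1 ± 2.00). By the longest transcript Mrpl23 was again the lowest, but Mrps30, Mrpl1 and Mrps2 gave way to Mrpl17, Mrps10 and Mrpl47 among the 5 lowest. Mrpl42 stood 64.6-fold above Mrpl23 on this scale, and 154-fold separated the highest from the lowest member when the longest transcript set the length. Mrpl42 was read at 277, 272 and 363 CPM in LC mice and at 262, 233 and 225 CPM in CMNKO mice, with an estimated log2 fold change of -0.34 (SE 0.14, adjusted p = 0.238), and Mrps21 at 85.3, 84.1 and 109 CPM in LC and 74.8, 73.2 and 70.7 CPM in CMNKO mice, with an estimated log2 fold change of -0.35 (SE 0.13, adjusted p = 0.209). In both genes LC 26 was the highest mouse.

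**Figure D4:**
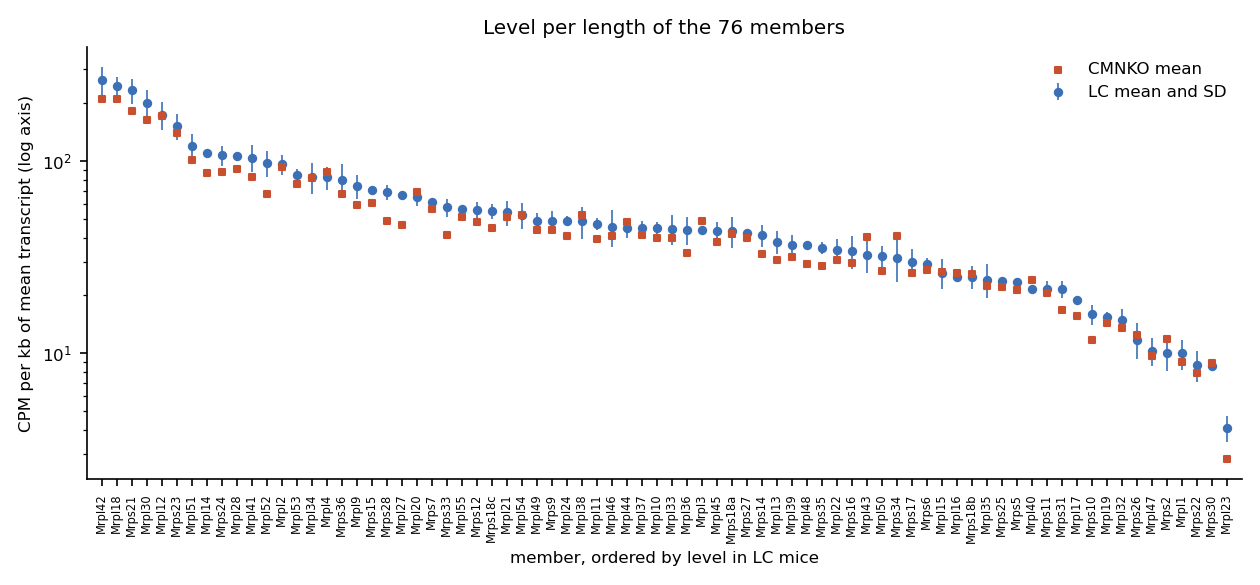
CPM per kb of mean transcript length (y axis, log scale) of the 76 members, ordered by the LC mean, with the LC mean and SD (circles) and the CMNKO mean (squares). Members span from 4.10 (Mrpl23) to 265 (Mrpl42) CPM per kb in LC mice, while the genotypes lie close together for each gene.

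Some members carry uncertain counts or names. Mrpl23 was read at 25, 33 and 34 counts in LC mice and at 35, 15 and 27 counts in CMNKO mice, while its pseudogene row Mrpl23-ps1 held 32 to 54 counts and exceeded it in every mouse except LC 25 (33 against 32 counts), so that reads of this gene can have been assigned to either row. Its log2 fold change of -0.52 had an SE of 0.29 (adjusted p = 0.336) and rested on the fewest counts of all members. The pseudogene row had an estimate of -0.35 (SE 0.23, adjusted p = 0.418). Mrpl48 and Mrps36 also have pseudogene rows, which held 49 to 97 counts (Mrpl48-ps), 18 to 36 counts (Mrps36-ps1) and 6 to 20 counts (Mrps36-ps2). The proteins of Mrps30 and Mrps18a sit in the large subunit despite their names, and that of Mrps36 is now assigned to the 2-oxoglutarate dehydrogenase complex. The estimates of these 3 genes were 0.06, -0.05 and -0.25, with overlapping groups.

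The members are short genes, and short genes had lower estimates as a whole. The median longest transcript of the members was 1806 bases, against 3340 bases over 12732 tested genes with a known length. Among all genes the median log2 fold change was -0.24 up to 1000 bases, -0.07 from there to 2000 bases and 0.04 above, and among members it was -0.29 (17 genes), -0.11 (24 genes) and -0.17 (35 genes). Members above 2000 bases thus lay below other genes of that length, while shorter members lay close to theirs. Estimates also went with GC content, with a Spearman's rho of 0.22 across the 76 members and 0.31 across all genes. The ratio of LC 25 and LC 26 to LC 15 went the other way, with a rho of -0.32 across the members and -0.44 across all genes. These are descriptions across genes that share the same 6 libraries. With trends on GC content and length removed from each library the median over the members was -0.15, with 59 lower estimates and 0 calls. The members varied slightly less than other genes between mice of a group, with a median biological coefficient of variation of 0.13 against 0.15 over all genes.

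Other genes of mitochondrial translation were examined beside the members. Of 7 mitoribosomal proteins under other symbols 0 passed, 5 had lower estimates and the median was -0.19. Ict1, a release factor relative built into the large subunit, had the smallest p of these (log2 fold change -0.30, SE 0.13, adjusted p = 0.259). Among 24 assembly and rRNA modification factors (median -0.09), 15 translation factors (median -0.06), 17 mitochondrial aminoacyl-tRNA synthetases (median 0.00) and 19 tested genes of mitochondrial DNA transcription and RNA processing (median -0.12), 0 passed. The medians of these 4 lists thus lay closer to 0 than that of the members, a difference that was not tested. Lower estimates included those of Mrm1 (log2 fold change -0.35, SE 0.15, adjusted p = 0.249) and Mtif2 (-0.35, SE 0.13, adjusted p = 0.206). Fars2 (-0.30, SE 0.13, adjusted p = 0.247) and Ssbp1 (-0.40, SE 0.15, adjusted p = 0.194) were also lower by estimate. Higher estimates were found too, as for the assembly factors Dhx30 (log2 fold change 0.37, SE 0.14, adjusted p = 0.199) and Ddx28 (0.44, SE 0.20, adjusted p = 0.258). These 2 had all CMNKO mice above all LC mice (8.33% of that list, against 11.2% of all genes). In the same list 4 genes had all below (16.7%, against 12.3%). The synthetase gene Lars2 had an estimate of 0.75 (SE 0.30, adjusted p = 0.22) with overlapping groups. Hsd17b10, a subunit of mitochondrial RNase P, was nearest to the threshold with 137, 136 and 165 CPM in LC mice and 93.0, 89.1 and 106 CPM in CMNKO mice, with an estimated log2 fold change of -0.60 (SE 0.13, adjusted p = 0.0717). DESeq2 placed it below the threshold (adjusted p = 0.0123).

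The RNAs that these ribosomes hold and translate were lower by estimate too. All 13 protein genes of mitochondrial DNA had lower estimates (median -0.36), and 1 of them passed, where 0.606% of all genes did. This was ATP8, a subunit of ATP synthase. It was read at 306, 378 and 346 CPM in LC mice and 191, 202 and 235 CPM in CMNKO mice. Its estimated log2 fold change was -0.72 (SE 0.14, adjusted p = 0.0444). For 3 of the 13 every CMNKO mouse lay below every LC mouse (23.1%, against 12.3% of all genes). In COX2 the groups overlapped, at 2010, 2790 and 2740 CPM in LC mice and 2060, 1800 and 1740 CPM in CMNKO mice. In summed share of all mitochondrial RNAs, LC 15 stood no higher than the CMNKO mice (26.45%, against 26.51% to 28.12%). Genotype and library block cannot be told apart for these RNAs. The mitochondrial rRNAs Rnr1 (log2 fold change -0.55, SE 0.24, adjusted p = 0.251) and Rnr2 (log2 fold change -0.43, SE 0.26, adjusted p = 0.377) did not pass. Rnr2 was read at 4450, 8900 and 9790 CPM in LC mice and at 6860, 5120 and 5160 CPM in CMNKO mice, lowest of all in LC 15. Ppargc1a, the coactivator known for driving mitochondrial gene programs, was read at 99.2, 94.6 and 174 CPM in LC mice and at 72.1, 79.1 and 82.2 CPM in CMNKO mice. Its estimated log2 fold change was -0.66 (SE 0.21, adjusted p = 0.15), and LC 26 was highest, as for most members. It was the lowest of 9 activators of nuclear genes for mitochondria, which had a median of -0.0007, with 5 lower and 4 higher estimates. Among them Pprc1 had an estimate of 0.34 (SE 0.17, adjusted p = 0.308) and Ppargc1b of -0.0045 (SE 0.20, adjusted p = 0.993).

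Other large gene families had lower estimates as well. Of 78 tested cytosolic ribosomal protein genes, 69 had lower estimates (median -0.26) and 25 had all CMNKO mice below all LC mice (32.1%). Of 79 nuclear-encoded respiratory chain subunits, 71 had lower estimates (median -0.26) and 42 had all CMNKO mice below (53.2%). In both lists 0 genes passed. The share with all CMNKO mice below was 32.9% for the members and 12.3% for all genes. The 3 lists shared the same control mice, and the difference between them was not tested.

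**Figure D5:**
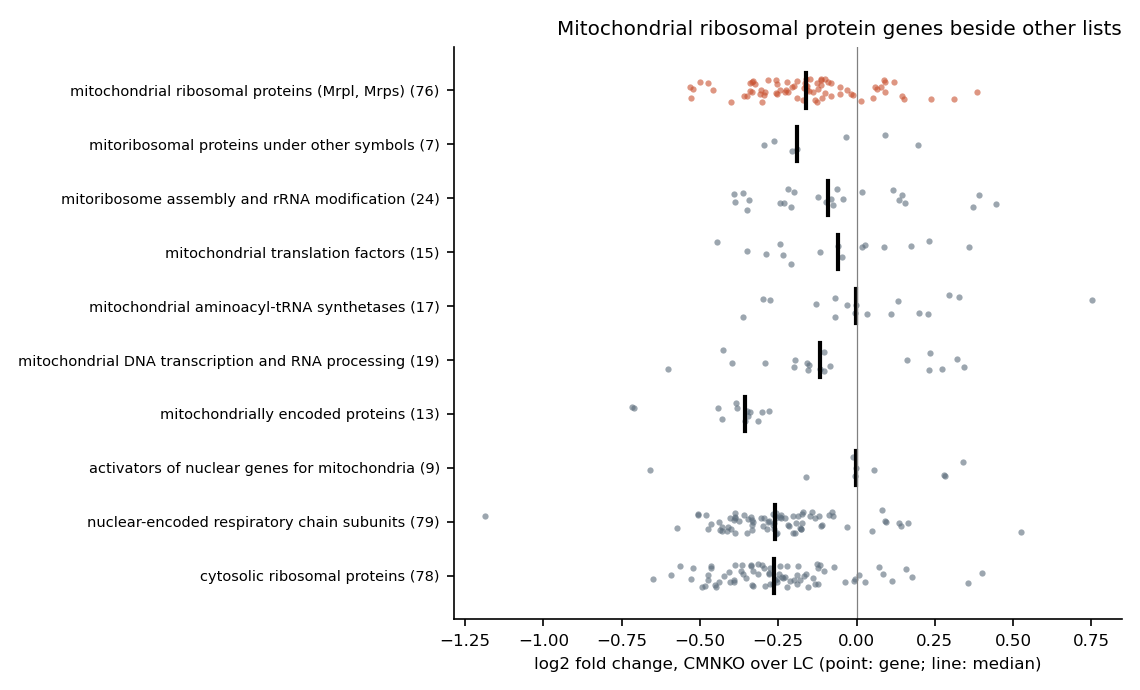
Log2 fold change of CMNKO over LC (x axis) for each tested gene (points) of the mitochondrial ribosomal proteins and 9 other lists, with the median of each list (black line) and its number of genes in brackets. The members (median -0.16) lie between the synthetases (0.00) and the mitochondrially encoded proteins (-0.36).

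Markers of 4 other cell types had higher estimates in CMNKO mice beside these values. All 6 markers of endothelial cells (median log2 fold change 0.57), of fibroblasts (0.49), of smooth muscle cells and pericytes (0.68) and of macrophages (0.42) had higher estimates in CMNKO mice, with 0 past the test. Their summed CPM ranged from 388 to 551 in LC and from 614 to 715 in CMNKO mice for endothelial cells, from 481 to 622 and from 583 to 941 for fibroblasts, from 209 to 328 and from 317 to 357 for smooth muscle cells and pericytes, and from 98.7 to 137 and from 135 to 202 for macrophages. In some of these markers LC 15 stood far above LC 25 and LC 26, as in Cdh5 (136 against 58.1 and 64.0 CPM) and Pdgfrb (73.0 against 35.1 and 35.4 CPM). The CMNKO mice were at 145 to 166 CPM for Cdh5 and at 77.7 to 81.0 CPM for Pdgfrb. In Kdr the LC mice lay closer together, at 96.2, 80.4 and 75.4 CPM. Genotype and library block cannot be told apart here. Cardiomyocyte markers summed to 62000 to 77000 CPM in LC and 66000 to 72600 CPM in CMNKO mice, and 0 of the 8 genes was at 0. Of these 8 genes 5 had lower and 3 had higher estimates (median -0.14, highest 0.32), and 0 passed the test. All CMNKO mice lay below all LC mice for 3 (37.5%, against 12.3% of all genes) and above for 1 (12.5%, against 11.2%). An unadjusted p below 0.05 was found for 3 lower genes (37.5%, against 8.80% of all genes) and 0 higher genes. Those 3 were the troponins Tnnt2 (log2 fold change -0.58, SE 0.15, adjusted p = 0.0958) and Tnni3 (-0.41, SE 0.15, adjusted p = 0.177) and the calcium pump regulator Pln (-0.41, SE 0.16, adjusted p = 0.202), each with all CMNKO mice below all LC mice. Of 5 red blood cell markers 4 had lower estimates (median -0.32) and 0 passed, with summed levels of 316 to 461 CPM in LC and 284 to 320 CPM in CMNKO mice. The 4 adipocyte markers were too low to be tested, at 0 to 0.156 CPM in LC and 0.251 to 4.45 CPM in CMNKO mice. The part of these cell types in the estimates of the members was not tested.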

How the data were processed

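Left ventricular RNA (TRIzol, TruSeq) of 3 LC and 3 CMNKO mice was sequenced by the authors. Clean reads were mapped to mm8, the build that the submitters' notes name, and raw counts of each gene in each mouse were deposited. The aligner and the counting tool are named in none of these sources. The deposited fold changes, p-values and FDR values are the authors' own comparison and were not used. Per-sample columns left unused numbered 0.

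In R 4.3.3, edgeR 4.0.16 kept 13040 genes (filterByExpr). TMM factors scaled the libraries, and the quasi-likelihood model held genotype alone. P-values were adjusted over all genes by the Benjamini-Hochberg method at 0.05. They set the genotype difference against the spread between mice of a group, which among LC mice includes any difference between library blocks. The 33 mitochondrially encoded rows stayed in. Alternatives were DESeq2 1.42.0, limma-voom (limma 3.58.1), other scalings and filters, a library block term, GC content and length trends removed, and each mouse left out. Lengths and GC content came from GENCODE vM21, which matched all 76 members by symbol. The fits were tested on simulated data that held no library block, so that this test does not cover the block difference.

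Genes were named by rule: those called, the 8 smallest p, the 5 highest and lowest fold changes and levels per kb, the lists by place in the ribosome, members whose estimate changed sign, and up to 3 genes of each other list. The members, the lists and this rule were chosen with earlier results of these data known.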

Additional observations from a re-analysis of the deposited data

How the results depend on the processing

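The count of 0 member genes called held under every alternative run except without LC 15 (0 to 12 with each mouse left out), and the median over the members stayed below 0 in all of them (-0.245 to -0.098 with each mouse left out). Scaling by library totals alone moved the members' median to -0.036 and that of all genes from 0.00 to 0.12, so that members then stood lower relative to other genes by a like amount. The number of all genes called was 79, and was 361 with DESeq2, 128 with upper-quartile scaling, 44 with library totals alone, 22 with the library block as a term, 181 with GC content and length trends removed, 51 in the first library block alone (an alternative chosen after seeing the data) and 0 to 2624 with each mouse left out. With each mouse left out, 27 to 42 members had all CMNKO mice below all LC mice and 2 to 7 had all above (35.5% to 55.3% and 2.63% to 9.21%). With 2 mice against 3 more genes are apart as a whole, with 1941 to 3331 of the 13040 tested genes below (14.9% to 25.5%) and 1828 to 3468 above (up to 26.6%). Of the 83 other genes of mitochondrial translation, 1 passed with DESeq2, where 361 of all 13040 genes passed. With each mouse left out 0 to 10 of them passed. The 10 were found without LC 15, where 2624 of all 13495 genes passed, so that these counts do not set them apart. The summed member level was 3.34% lower (-3.34) in CPM of all counts, against -11.3 with TMM scaling, and the fold between the highest and the lowest member per length was 154 with the longest transcript.

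In 29 members the estimate changed sign in at least 1 of 17 settings. With the library block as a term and in the first block alone it became 0.15 for Mrpl1, 0.078 for Mrpl21, 0.10 for Mrpl22, 0.044 for Mrpl33, -0.16 for Mrpl38, -0.12 for Mrpl4, 0.076 for Mrpl46, 0.0023 for Mrps11, 0.010 for Mrps16, 0.20 for Mrps22, 0.15 for Mrps23, -0.24 for Mrps26, 0.0091 for Mrps6 and 0.033 for Mrps9, where the first block alone gave 0.0026 for Mrps11 and 0.0092 for Mrps6. With library totals alone it became 0.091 for Mrpl12, 0.012 for Mrpl19, 0.065 for Mrpl2, 0.046 for Mrpl21, 0.10 for Mrpl34, 0.014 for Mrpl35, 0.034 for Mrpl47, 0.11 for Mrpl54, 0.043 for Mrps11, 0.066 for Mrps18a, 0.017 for Mrps23, 0.020 for Mrps25, 0.021 for Mrps27 and 0.010 for Mrps6. Upper-quartile scaling gave -0.019 for Mrpl15. With GC content and length trends removed it became 0.044 for Mrpl22, 0.054 for Mrpl34, -0.048 for Mrpl4, 0.040 for Mrpl54, -0.010 for Mrps26, 0.0025 for Mrps36 and 0.012 for Mrps9. With each mouse left out the estimate ran from -0.14 to 0.094 for Mrpl12, from -0.11 to 0.17 for Mrpl15, from -0.13 to 0.046 for Mrpl2, from -0.036 to 0.27 for Mrpl20, from -0.16 to 0.047 for Mrpl21, from -0.16 to 0.10 for Mrpl34, from -0.22 to 0.064 for Mrpl35, from -0.27 to 0.036 for Mrpl46, from -0.19 to 0.046 for Mrpl47, from -0.12 to 0.10 for Mrpl54, from -0.14 to 0.0084 for Mrps11, from -0.19 to 0.049 for Mrps18a, from -0.060 to 0.15 for Mrps18b, from -0.020 to 0.26 for Mrps26 and from -0.014 to 0.12 for Mrps30. The cause of these changes was not tested.

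No paired analysis was possible because the sample labels do not say which LC and CMNKO mice came from the same litter. With 3 mice per group, the members had a median SE of 0.14. Changes of the size of the members' median are thus not detectable gene by gene. The 0 calls do not show that the genes did not differ. The fits without 1 mouse leave 2 mice in a group, and the block term rests on LC 15 alone.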
